A study of Mus musculus with 6 samples.

Results

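Lysosomes are the acidic organelles in which cells digest internalized and worn-out material, and microglia and infiltrating macrophages depend on them to clear myelin debris and dying cells. Soluble hydrolases and their activator proteins do the digestion in the lumen, while heavily glycosylated membrane proteins line and protect the limiting membrane. The genes described here are 8 of the 18792 genes measured, chosen by name as lysosomal hydrolases, activators and membrane proteins other than the cathepsins. They are Hexa, Gusb, Psap, Grn, Lamp1, Lamp2, Cd68 and Laptm5, and all 8 were present in the table and passed the limit on low values in every comparison.

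The study profiled spinal cord cells from WT mice and from Nd6 mice, which carry a point mutation in the mitochondrially encoded complex I subunit mt-Nd6, with droplet-based scRNA-seq. The labels list 1 library of WT and 1 of Nd6 healthy control mice, and 2 of WT and 2 of Nd6 mice with experimental autoimmune encephalomyelitis (EAE), a model of multiple sclerosis induced by immunization with a myelin peptide. In all groups mice were perfused with the transcription inhibitors actinomycin D and triptolide, the cord was dissociated and debris or myelin was removed, and the labels give neither an age nor the number of animals behind a library. The deposited table holds 13614 cells whose names end in 1 of 6 numbers that nothing ties to a library, so that it was read as 1 pooled sample. Neither the genotypes nor healthy and EAE mice could be compared, and no test was run.

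The values were whole numbers with totals per cell between 687 and 1578 (median 962), treated as a score rather than as molecule counts, and every level below is a mean over cells of the value per 10000 of the cell's total. The 6 groups of cells that share a number are called sets A to F in order of size, from 4633 to 809 cells, and 18 barcodes occurred in more than 1 set. Levels in separate sets show how far a value varied across the table, but sets are not known replicates of a condition. Since the values carry no length scaling, levels of different genes were not compared with each other.

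Cells were grouped by panels of 10 marker genes that include none of the 8 genes. A cell with at least 3 genes with a value over 0 from exactly 1 non-myeloid panel is called marked for that type, and otherwise a cell with at least 3 myeloid markers is called myeloid. The neutrophil panel was counted among the non-myeloid panels, although neutrophils are myeloid cells. Myeloid cells numbered 11036 (81.1%) and were divided into homeostatic cells (at least 3 homeostatic microglia markers and an Apoe value under 10), microglia-marked cells with raised Apoe (the same markers and a value of 10 or more), very high Apoe cells (fewer such markers and 60 or more), monocyte-like, interferon-responsive and proliferating cells, and the remaining 3016 cells, called other myeloid. Monocyte-like cells needed no more than 2 of 10 markers, and 824 of 1321 sat at that minimum. At the minimum of 3 homeostatic markers sat 836 of 1471 raised-Apoe cells but 313 of 1671 homeostatic cells, with medians of 3 and 5 such markers. The 2 states thus differed in homeostatic markers as well as in Apoe. Of the oligodendrocyte-marked cells 451 of 736, and of the neutrophil-marked cells 76 of 100, sat at their minimum.

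States and sets went together closely, which bears on every comparison between states. Of 1671 homeostatic cells, 884 came from set D and 692 from set E, whereas sets A and C held none. Set B supplied 1123 of 1321 monocyte-like and 145 of 172 proliferating cells, and set A 2185 of 3275 very high Apoe cells. Ratios between states were therefore also computed inside sets B and F, the only sets that held at least 20 homeostatic cells next to cells of another named state. A difference between states that appeared only between sets cannot be told apart from a difference between sets. The Apoe values behind the state limits also differed between sets outside the myeloid cells. Mean Apoe per 10000 ran from 11.1 in set E to 805.9 in set A in non-myeloid cells. In myeloid cells it ran from 12.1 in set E to 1032 in set C. The median Apoe value was 66 in endothelial-marked and 43.5 in oligodendrocyte-marked cells. How far the Apoe states reflect the set rather than the cell was not tested.

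The 8 genes lie on 7 chromosomes, and their RefSeq positions (GRCm38.p6, the build of the authors' alignment) place Hexa at chr9:59539540-59565109, Gusb at chr5:129989011-130003049, Psap at chr10:60277628-60302600, Grn at chr11:102430507-102436809, Lamp1 at chr8:13159161-13175338, Lamp2 at chrX:38399647-38456460, Cd68 at chr11:69664213-69666170 and Laptm5 at chr4:130912890-130936148. The windows of 250 bases directly upstream of the RefSeq start sites were searched for CACGTG, the core of the E-box bound by the lysosomal regulators TFEB and MITF, and for GAGGAA, a core bound by the myeloid factor PU.1, on both strands. Psap had a further window, at chr10:60284211-60284460. This window and the window of Laptm5 (chr4:130913066-130913315) lay inside the gene positions given above rather than upstream of them. The windows of Lamp1, Lamp2 and Cd68 are shown as those of 3 membrane genes described below across myeloid and non-myeloid cells, and that of Laptm5 is not shown. Capitals mark CACGTG in Lamp1 and GAGGAA, or its reverse complement, in Lamp2 and Cd68.
Lamp1 (chr8:13158911-13159160, plus strand): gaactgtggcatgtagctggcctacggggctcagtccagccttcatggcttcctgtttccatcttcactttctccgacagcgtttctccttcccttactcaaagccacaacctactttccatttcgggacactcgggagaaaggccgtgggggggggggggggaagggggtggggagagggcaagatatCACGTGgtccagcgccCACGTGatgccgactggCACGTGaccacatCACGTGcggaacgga
Lamp2 (chrX:38456461-38456710, minus strand): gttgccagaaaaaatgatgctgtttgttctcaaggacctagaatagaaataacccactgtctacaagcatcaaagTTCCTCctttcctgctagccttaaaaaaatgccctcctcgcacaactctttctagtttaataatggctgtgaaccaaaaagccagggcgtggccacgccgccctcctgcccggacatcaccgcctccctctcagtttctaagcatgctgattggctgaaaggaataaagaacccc
Cd68 (chr11:69666171-69666420, minus strand): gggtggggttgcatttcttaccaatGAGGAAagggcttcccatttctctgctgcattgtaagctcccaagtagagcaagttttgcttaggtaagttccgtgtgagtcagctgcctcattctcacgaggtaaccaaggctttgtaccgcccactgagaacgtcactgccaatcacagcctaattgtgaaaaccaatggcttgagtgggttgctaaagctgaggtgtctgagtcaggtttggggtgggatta
CACGTG occurred 4 times upstream of Lamp1, starting 61, 45, 28 and 15 bases before the start site, and in the window of no other member. It was present in 6.02% of 32851 windows of this length, 4 or more matches were present in 7 of them, and 12 of 68 windows of the other lysosome genes held it (17.6%). GAGGAA occurred in a window of 5 of the 8 genes (Psap, Grn, Lamp2, Cd68 and Laptm5), that of Laptm5 lying inside the gene. Counted by window, it was in 5 of 9 windows of the members (55.6%), against 23.3% of all windows. Of the windows of the other lysosome genes, 12 of 68 held it (17.6%). These matches describe letters in a window and were not tested as binding sites.

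Across the 14 gates with at least 50 cells, the members were all lowest in the same gate but differed in the gate where they were highest. Hexa, Lamp2 and Laptm5 were highest in homeostatic cells, Grn in microglia-marked cells with raised Apoe, Cd68 in very high Apoe cells, Psap in monocyte-like cells, Gusb in proliferating cells and Lamp1 in oligodendrocyte-marked cells. That lowest gate was ependymal-marked cells, the ciliated cells that line the central canal, where Psap averaged 3.46 and Cd68 0.75. Laptm5 had the widest range within the myeloid cells, its highest state lying 3.60 times above its lowest, and Grn the narrowest, at 1.37 times.

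**Figure D1:**
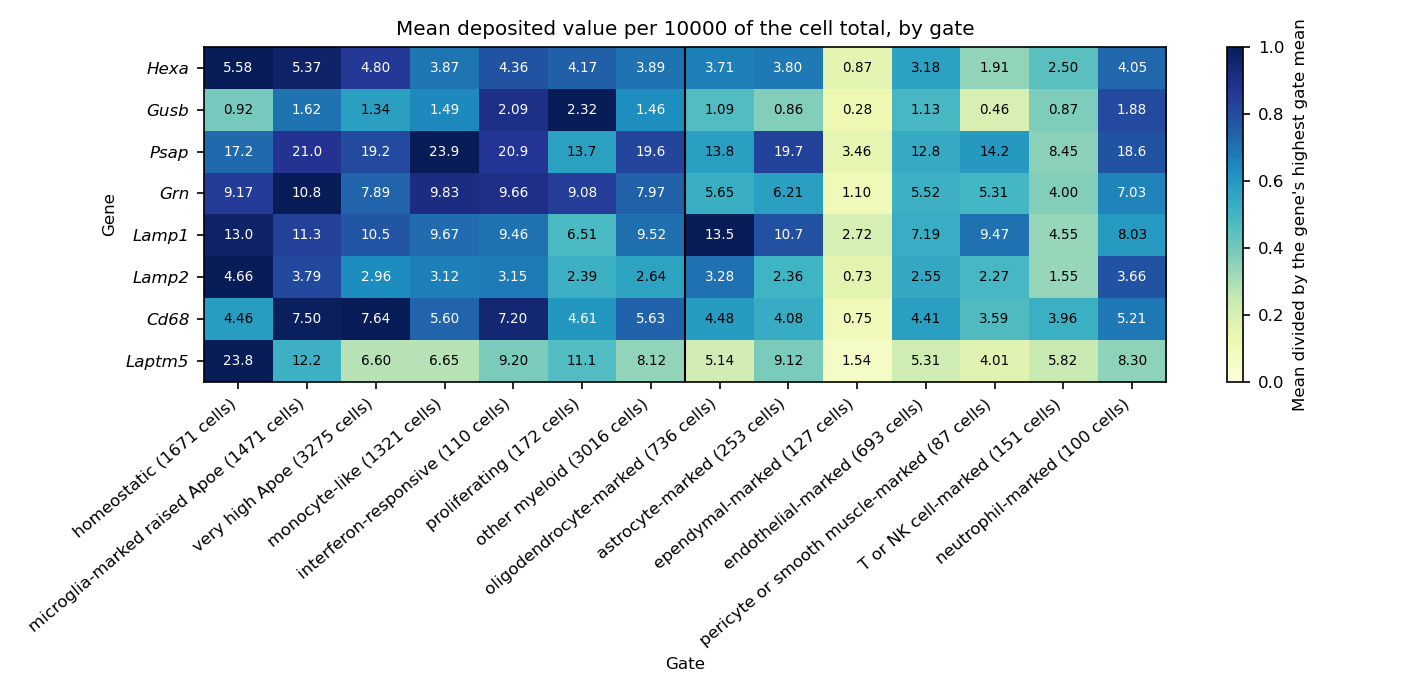
Mean value per 10000 of the cell total for the 8 genes (rows) in 14 gates (columns, with their number of cells), printed in each cell and coloured relative to the gene's own highest gate. Myeloid states are left of the black line, and neutrophil-marked cells are right of it with the non-myeloid gates. Laptm5 is darkest in homeostatic cells (23.8), Lamp1 in oligodendrocyte-marked cells (13.5), and all rows are palest in ependymal-marked cells.

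Among the soluble hydrolases, Hexa encodes the alpha subunit of beta-hexosaminidase, which removes a terminal sugar from gangliosides. Its level moved little between myeloid states, from 5.58 in homeostatic and 5.37 in microglia-marked cells with raised Apoe to 4.80 in very high Apoe and 3.87 in monocyte-like cells. Homeostatic cells of sets B, D, E and F averaged 4.79, 5.23, 6.03 and 6.75. The monocyte-like level inside set B was 0.81 times the homeostatic level there, so the direction was kept, and no state reached the ratio of 1.5 used here to call a difference in the pooled cells. Inside set F the very high Apoe level was 4.05 against 6.75 in homeostatic cells, a ratio of 0.60 that was past it.

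Gusb, which encodes beta-glucuronidase, an enzyme that degrades glycosaminoglycans, was sparse. It had a value above 0 in 9.0% of homeostatic cells (mean 0.92) and in 22.7% of proliferating cells (mean 2.32), which were the lowest and the highest state. The 4 homeostatic sets did not agree, at 2.32 in set B and 1.5 in set F against 0.84 in set D and 0.86 in set E. Inside set B the homeostatic level lay above that of monocyte-like (1.52), interferon-responsive (1.72) and proliferating cells (2.06), the opposite order to the pooled values. Very high Apoe cells of set B, 20 in number, were at 2.95. The higher pooled Gusb level in the first 3 of these states was therefore not present inside the set that held most of their cells.

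Psap encodes prosaposin, the precursor of the saposins that present sphingolipids to their hydrolases. It was detected in 72.1% of homeostatic and 85.2% of monocyte-like cells, with means of 17.2 and 23.9. The monocyte-like level followed the set, at 25.1 in set B and 16.6 in set A, and other myeloid cells were likewise higher in set B (23.7) than in the 5 other sets (12.96 to 14.99). Without set B the monocyte-like to homeostatic log2 ratio went from 0.47 to -0.02. The lowest state was proliferating, at 13.7 overall and 14.6 in set B, where it was 0.68 times the homeostatic level of 21.4.

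Grn encodes progranulin, a secreted and lysosomal glycoprotein that is processed into granulins and supports lysosomal enzyme function. It ranged from 7.89 in very high Apoe to 10.8 in microglia-marked cells with raised Apoe. Inside sets B and F the very high Apoe level was 0.68 and 0.51 times the homeostatic one, a larger difference than in the pooled cells (log2 ratio -0.22). In set B, Grn was 14.3 in homeostatic and 15.4 in raised-Apoe cells but 10.0 in monocyte-like, 9.72 in interferon-responsive and 9.48 in proliferating cells, so that both groups carrying homeostatic markers stood above the other 3. It also increased with the number of homeostatic markers, from 7.50 in myeloid cells with none to 11.0 in those with 4 or more, and this held between the end bands of sets A, B, C, E and F and between 1 marker and 4 or more in set D.

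Of the membrane proteins, Lamp1 and Lamp2 are paralogs that make up much of the glycoprotein coat on the inner face of the lysosomal membrane, and Lamp2 has a further role in autophagy. Both were highest among myeloid states in homeostatic cells, at 13.04 for Lamp1 and 4.66 for Lamp2, and lowest in proliferating cells, at 6.51 and 2.39. Inside sets B and F, however, raised-Apoe Lamp1 lay above homeostatic Lamp1 (12.7 against 10.6 and 10.6 against 8.34), and Lamp2 did in set F (4.01 against 3.35). In set B the proliferating to homeostatic ratio was 0.60 for Lamp1 and 0.52 for Lamp2, so both differences were also present inside a set. For the very high Apoe state the 2 genes parted, since Lamp1 was higher than in homeostatic cells inside sets B and F (ratios from 1.17 to 1.34) and lower in the pooled cells (log2 ratio -0.31), whereas Lamp2 was lower in all 3 (log2 ratio -0.66 pooled, ratios of 0.66 and 0.94 within sets).

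Cd68, also called macrosialin, is a LAMP-family protein of late endosomes and lysosomes that is widely used as a marker of phagocytic macrophages and activated microglia. Like Gusb, it was lowest among the myeloid states in homeostatic cells, where its mean was 4.46 and 33.8% of cells had a value above 0. The levels in microglia-marked cells with raised Apoe and very high Apoe cells were 7.50 (53.0%) and 7.64 (49.3%). With every cell thinned to a total of 687, the share of cells with Cd68 was 24.5% in homeostatic, 39.9% in raised-Apoe and 37.9% in very high Apoe cells, the same order of homeostatic against the other states.

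The homeostatic level of Cd68 depended on the set, at 3.41 in set B, 4.49 in D and 4.29 in E but 8.03 in F. Set F had raised-Apoe and very high Apoe levels of 8.11 and 9.95, which were 1.01 and 1.24 times its own homeostatic level. Set B had levels of 6.58 and 15.9, the latter from 20 cells, and ratios of 1.93 and 4.67. The Cd68 difference from homeostatic cells was thus past the ratio of 1.5 in set B and in the pooled cells but not in set F, where the raised-Apoe level was close to the homeostatic one.

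**Figure D2:**
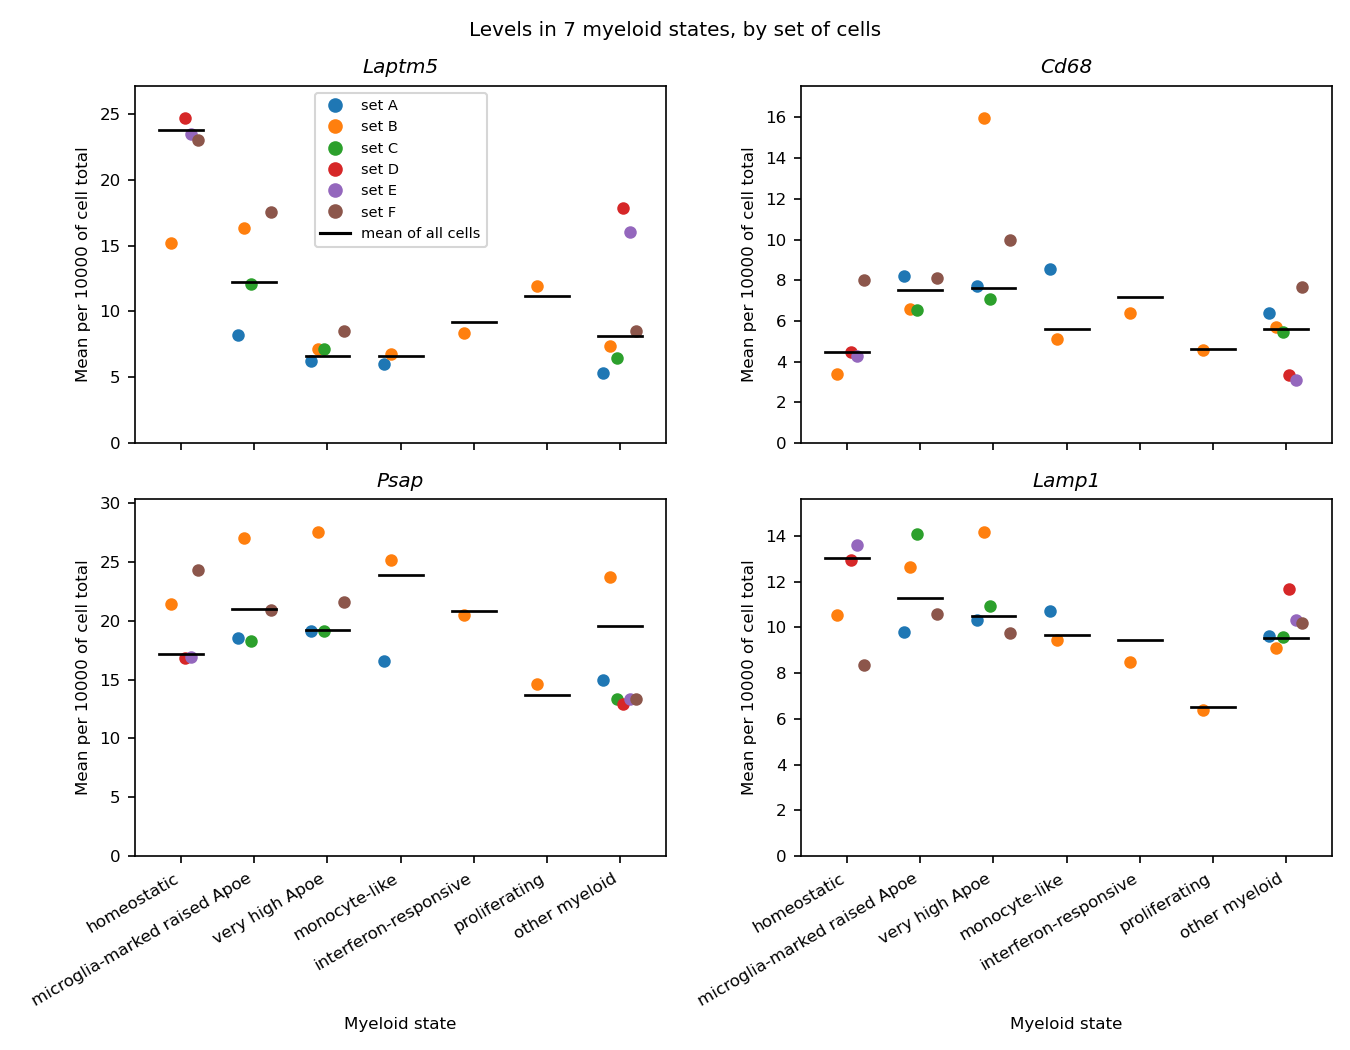
Mean per 10000 of the cell total of Laptm5, Cd68, Psap and Lamp1 in 7 myeloid states, with a point for each set of at least 20 cells in that state and a black line for the mean of all cells. Homeostatic Laptm5 lies between 15.2 and 24.7 and very high Apoe Laptm5 between 6.25 and 8.55, whereas the Psap points of set B lie above those of other sets in most states.

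Laptm5 encodes a lysosomal transmembrane protein of haematopoietic cells that promotes lysosomal degradation of antigen receptor components. It showed the largest differences of the 8 genes. Homeostatic cells averaged 23.8 (83.2% of cells above 0, 95% exact binomial interval 81.3 to 84.9, which covers counting error only), microglia-marked cells with raised Apoe 12.2 (61.3%, 58.8 to 63.8) and very high Apoe cells 6.60 (44.5%, 42.8 to 46.3). Monocyte-like, interferon-responsive and proliferating cells were at 6.65, 9.20 and 11.1. With cells thinned to equal totals, the shares in the first 3 states were 73.5%, 48.7% and 34.4%.

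The Laptm5 difference between homeostatic and very high Apoe cells was also present inside sets. Set F contained 40 homeostatic, 206 raised-Apoe and 100 very high Apoe cells, with levels of 23.0, 17.6 and 8.55. Set B had 15.2 in homeostatic, 16.3 in raised-Apoe, 7.13 in very high Apoe and 6.77 in monocyte-like cells, so the raised-Apoe and homeostatic levels there were close (ratio 1.08). Very high Apoe cells were at 0.47 and 0.37 times the homeostatic level in sets B and F, and at 0.44 to 0.76 times the raised-Apoe level in sets A, B, C and F. Raised-Apoe cells, in contrast, ranged from 8.20 in set A to 17.6 in set F, and the pooled ratio of 0.51 to homeostatic cells was reached in neither set that held both states (0.76 and 1.08).

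Grouping myeloid cells by the number of homeostatic markers, regardless of Apoe, gave the same end points in every set. In the pooled cells Laptm5 was 5.79 with no marker, 7.17 with 1, 8.45 with 2, 11.3 with 3 and 21.0 with 4 or more. Cells with 4 or more markers were highest in all 6 sets, from 9.75 in set A to 24.9 in set D, and cells with the fewest markers were lowest in all 6. The level at a given number of markers still differed between sets, since cells with 2 markers averaged 6.08 in set A and 19.8 in set D. Cd68 had no such order, at 6.54 with no marker and 5.80 with 4 or more. The number of markers above 0 also depends on how many genes a cell shows, and the part of this in the result was not tested beyond the alternatives on gene number and depth, in which the Laptm5 ratio of very high Apoe to homeostatic cells kept its direction.

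**Figure D3:**
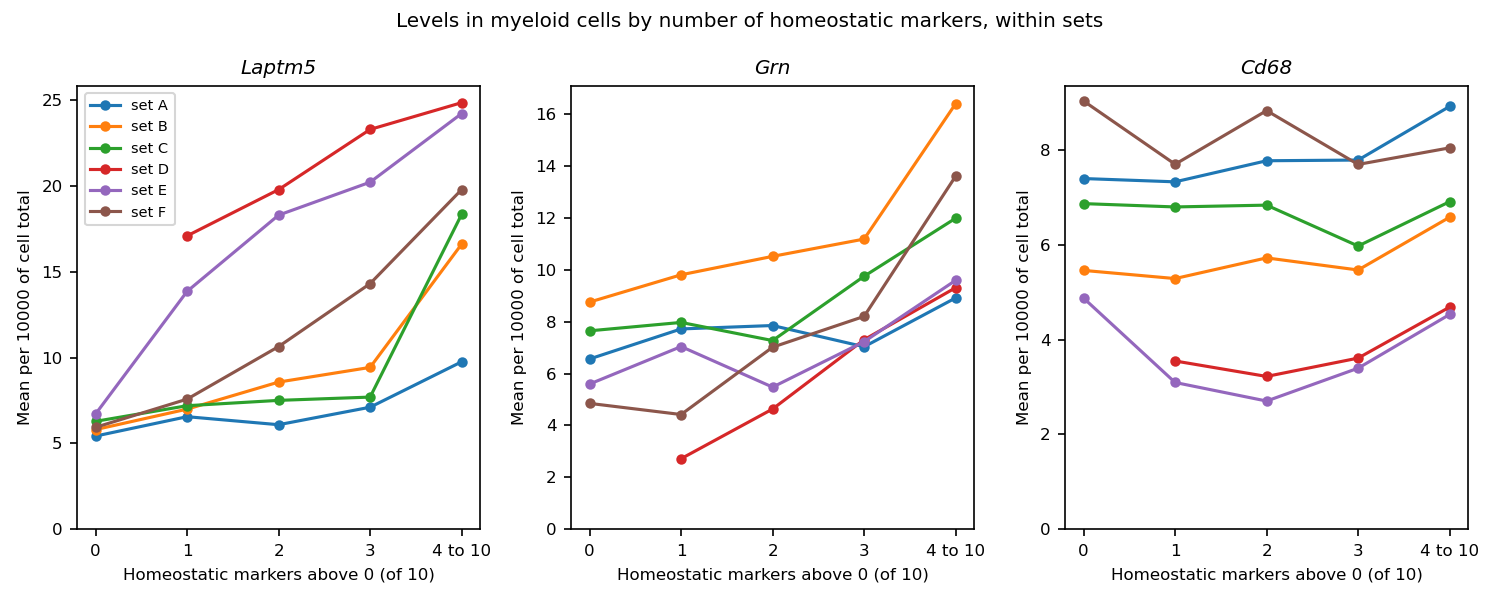
Mean per 10000 of the cell total of Laptm5, Grn and Cd68 in myeloid cells with 0, 1, 2, 3 or 4 to 10 homeostatic microglia markers above 0, with a line for each set and only bands of at least 20 cells. The Laptm5 lines end at their highest point in all 6 sets, between 9.75 and 24.9, while the Cd68 lines have no common order.

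Set against homeostatic cells, 2 members (Gusb and Cd68) were higher by a ratio of at least 1.5 in microglia-marked cells with raised Apoe, where 18.8% of 3220 genes were higher, and 1 (Laptm5) was lower, against 18.6% of genes. In very high Apoe cells 1 member (Cd68) was higher and 2 (Lamp2 and Laptm5) were lower, with 20.6% and 30.5% of 3238 genes. In monocyte-like cells Gusb was higher and Laptm5 lower (26.5% and 23.2% of 3444 genes). In interferon-responsive cells Gusb and Cd68 were higher and Laptm5 lower (34.2% and 19.5% of 3640 genes), and in proliferating cells Gusb was higher and Lamp1, Lamp2 and Laptm5 were lower (37.8% and 20.4% of 3560 genes). With so many genes past the ratio and 8 members, these counts are near the background and do not set the members apart. Laptm5 was lower in all 5 comparisons, which share the homeostatic cells as reference. Inside set B, which held most proliferating cells, proliferating Laptm5 was 11.9 against 15.2 in homeostatic cells, a ratio of 0.78 that was not past the limit. Set against microglia-marked cells with raised Apoe instead, Laptm5 was the member past the ratio in very high Apoe cells, where it was lower (6.79% of 2990 genes lower and 1.71% higher), and also in monocyte-like cells (5.71% of 3222 genes lower and 8.88% higher). The pooled ratios were 0.54 in both.

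**Figure D4:**
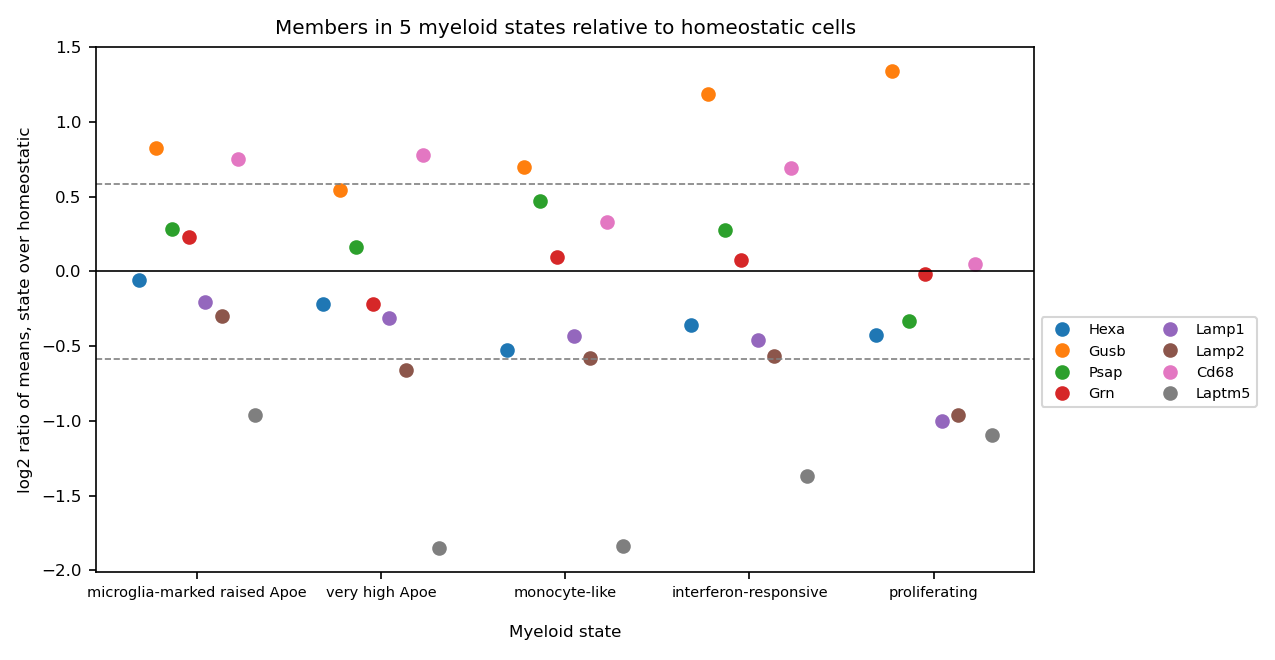
The log2 ratio of the mean in each of 5 myeloid states to the mean in homeostatic cells for the 8 genes, over all sets, with dashed lines at a ratio of 1.5 in either direction. Laptm5 lies under the lower line in every state, down to -1.85 in very high Apoe cells, and Gusb and Cd68 are the members above the upper line. All 5 ratios share the homeostatic cells, and inside set B Gusb was above the homeostatic level only in very high Apoe cells (2.95 against 2.32).

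The other lysosome genes listed beside the members, 74 in 6 groups, were called in both directions. In raised-Apoe cells 17 were higher and 4 lower than in homeostatic cells (33.3% and 7.84% of the 51 above the limit on low values, beside 18.8% and 18.6% of all genes). The median log2 ratio there was 0.29, beside -0.08 over all genes. In very high Apoe cells 14 were higher and 11 lower (28.6% and 22.4%, beside 20.6% and 30.5% of all genes), and in monocyte-like cells 16 and 13 (30.8% and 25%, beside 26.5% and 23.2%). In interferon-responsive cells the counts were 16 and 13 (32% and 26%, beside 34.2% and 19.5%) and in proliferating cells 11 and 15 (24.4% and 33.3%, beside 37.8% and 20.4%). These shares lay on both sides of those of all genes. Subunits of the vacuolar proton pump, which acidifies the lysosome, were never lower in these 5 comparisons, and 3 to 5 of the 11 or 12 above the limit were higher, from 25% in raised-Apoe cells, where 18.8% of all genes were, to 45.5% in proliferating cells, where 37.8% were. They include Atp6v0c with 11.1 in raised-Apoe and 4.12 in homeostatic cells.

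Other lysosome genes gave examples in both directions. Lgmn, the lysosomal asparaginyl endopeptidase legumain, was 16.1 in homeostatic and 6.76 in very high Apoe cells. Of the membrane genes, the tetraspanin Cd63 went the other way, with 3.76 in homeostatic, 18.1 in raised-Apoe and 19.6 in very high Apoe cells. The sets behind these states differ as described above, and how far these values hold within sets was not computed.

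In the non-myeloid gates the levels of the members came with those of myeloid transcripts. Tyrobp, a signalling adaptor of myeloid and natural killer cells, was above 0 in 73.6% of endothelial-marked, 74.7% of oligodendrocyte-marked and 84.6% of astrocyte-marked cells, against 91.8% of myeloid cells, and the median of myeloid markers in each of these gates was 6 of 10. The part of these transcripts in the levels of the members was not tested. The cells counted as non-myeloid included 100 neutrophil-marked cells. This gate had the highest non-myeloid level of Hexa, Gusb, Grn, Lamp2 and Cd68. Under this definition Grn, Cd68 and Laptm5 were higher in myeloid than in non-myeloid cells by a ratio of at least 1.5 (8.76 against 5.28, 6.29 against 4.13 and 10.5 against 5.57), 3 of 8 members where 5.08% of 3464 genes were higher, and none was lower, where 19.8% of genes were. With at least 4 markers 6 members were higher, and with at most 2 myeloid markers in the non-myeloid cells 7 were, Lamp1 being the exception. Without set A, which gave 950 of the 2193 non-myeloid cells, 7 were higher as well. The other lysosome genes described above numbered 5 under the first definition and 29, 37 and 23 under these alternatives, in the same order. The share of all genes was not computed under the alternatives, so these member counts have no background and do not set the members apart. A limit on myeloid markers itself selects cells with little myeloid RNA, so levels under it are given as values only. Tyrobp is one of those markers, so its low level under the limit follows from the limit.

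Oligodendrocytes make myelin, and the cells marked for them had the highest mean of the 14 gates for Lamp1. Its level in the pooled oligodendrocyte-marked cells was 13.5 with at least 3 markers, 17.4 with at least 4 and 22.7 with at least 5, while Tyrobp went from 24.7 to 17.0 and 12.8. In the 140 cells with at most 2 myeloid markers it was 22.5, and 103 of them (73.6%, 95% interval 65.5 to 80.7) had a value above 0. In the same cells Cd68 was above 0 in 7.14%, Laptm5 in 7.86% and Tyrobp, which the limit itself holds low, in 12.9%. Endothelial-marked cells limited in the same way had Lamp1 in 27.3% (20.1 to 35.5) and ependymal-marked cells in 18.0% (10.6 to 27.6), with median totals of 1139 and 1224 beside 959.5 in the oligodendrocyte-marked cells. Under this limit Lamp1 was above 0 in 52.2% of 23 pericyte or smooth muscle-marked cells (level 10.8). It was above 0 in 40% of 20 astrocyte-marked cells (level 11.1) and in 7.69% of 52 T or NK cell-marked cells (level 0.64).

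The Lamp1 level in these oligodendrocyte-marked cells was 30.02 in set C, 25.7 in set D and 20.2 in set E, the sets with at least 20 of them, and each value lay above that of all myeloid cells of its set (11.1, 12.8 and 13.02). Without the limit on myeloid markers, set A, with 373 of the 736 oligodendrocyte-marked cells, had 9.82 beside 10.2 in its myeloid cells, while the 5 other sets had 12.98 to 22.7, above their myeloid cells. Set A gave 41 of the 147 cells with at least 5 markers, so its share went down in the pooled rise. From at least 3 to at least 5 markers Lamp1 went from 9.82 to 14.9 in set A, 12.98 to 19.6 in B and 22.7 to 37.7 in C. In set E it was 17.8, 17.4 and 20.5 with at least 3, 4 and 5 markers. Lamp1 divided by Tyrobp was higher in oligodendrocyte-marked than in myeloid cells in 6 of 6 sets, by a median of 3.82 times (range 1.15 to 4.91), and Lamp2 by a median of 1.53 times (1.09 to 3.20), also in 6 of 6. Laptm5 over Tyrobp was above the myeloid ratio in 0 of 6 sets (median 0.86 times), as was the myeloid marker Fcer1g (median 0.93 times). Hexa, Gusb, Psap, Grn and Cd68 lay on both sides of the myeloid ratio, in 3 or 4 of 6 sets above it. A high ratio of Lamp1 to Tyrobp was not particular to oligodendrocyte-marked cells. In endothelial-marked cells it was also above the myeloid ratio in 6 of 6 sets (median 1.17 times). Over the pooled cells it was 0.69 in ependymal-marked, 0.57 in pericyte or smooth muscle-marked and 0.55 in oligodendrocyte-marked cells.

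Over the pooled astrocyte-marked cells Psap and Lamp1 changed little as the definition tightened, but they moved inside sets. From at least 3 to at least 4 markers Psap went from 19.4 to 20.7 in set A, 24.9 to 22.8 in B and 15.6 to 12.7 in E. Lamp1 went from 11.8 to 15.8, 9.17 to 10.1 and 11.4 to 8.87 in the same sets. Tyrobp went from 27.5 to 18.8 in A and 23.7 to 20.3 in B, and stayed at 28.6 in E. The pooled values were as follows. The Psap level was 19.7 with at least 3 astrocyte markers, 19.5 with at least 4 and 21.1 with at least 5, and Lamp1 was 10.7, 11.6 and 9.94, while Cd68 went from 4.08 to 2.21 and 1.93 and Tyrobp from 26.1 to 21.5 and 15.6. Psap over Tyrobp was above the myeloid ratio in 4 of 4 sets (median 1.42 times, 1.20 to 1.56), and so was Lamp1 (1.39 times). The myeloid marker Fcer1g was also above it in 4 of 4 sets (median 1.11 times, 1.07 to 1.51), and Laptm5 and the myeloid marker C1qa in 3 of 4 (1.17 and 1.15 times), so the ratios of Psap and Lamp1 overlapped that of a myeloid marker. Only 20 astrocyte-marked cells had at most 2 myeloid markers, of which 55.0% had a Psap value above 0, too few for a comparison between sets.

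Over the pooled T or NK cell-marked cells Laptm5 did not go down as the definition tightened, whereas the other members did. Laptm5 was 5.82, 5.86 and 7.94 with at least 3, 4 and 5 markers, while Psap went from 8.45 to 3.80 and 2.07 and Tyrobp from 17.7 to 9.12 and 3.99. Inside sets, from at least 3 to at least 4 markers, Laptm5 went up only in set B, from 8.003 to 8.799. It went from 4.51 to 3.85 in set A and from 4.92 to 4.62 in set C. Lamp2 went up in set A, from 2.13 to 2.22. Set A, with the lowest Laptm5 level, gave 67 of 151 cells and then 25 of 75, so its share went down. Of the 52 T or NK cell-marked cells with at most 2 myeloid markers, 20 had a Laptm5 value above 0 (38.5%, 25.3 to 53.0), against 11 of 139 endothelial-marked (7.91%, 4.02 to 13.7) and 11 of 140 oligodendrocyte-marked cells (7.86%, 3.99 to 13.6), with median totals of 1060, 1139 and 959.5. Laptm5 over Tyrobp was above the myeloid ratio in 3 of 3 sets (median 1.86 times), but over the pooled cells the log2 ratio was 0.17, and it fell below 0, to -0.48 at the lowest, with at least 2 markers, with the stated filters and without set B. Cd68 was above 0 in 0 of the 52 cells, which allows a share of cells with a value of up to 5.77% (3 counts of 52) and sets no limit on cells that express the gene.

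**Figure D5:**
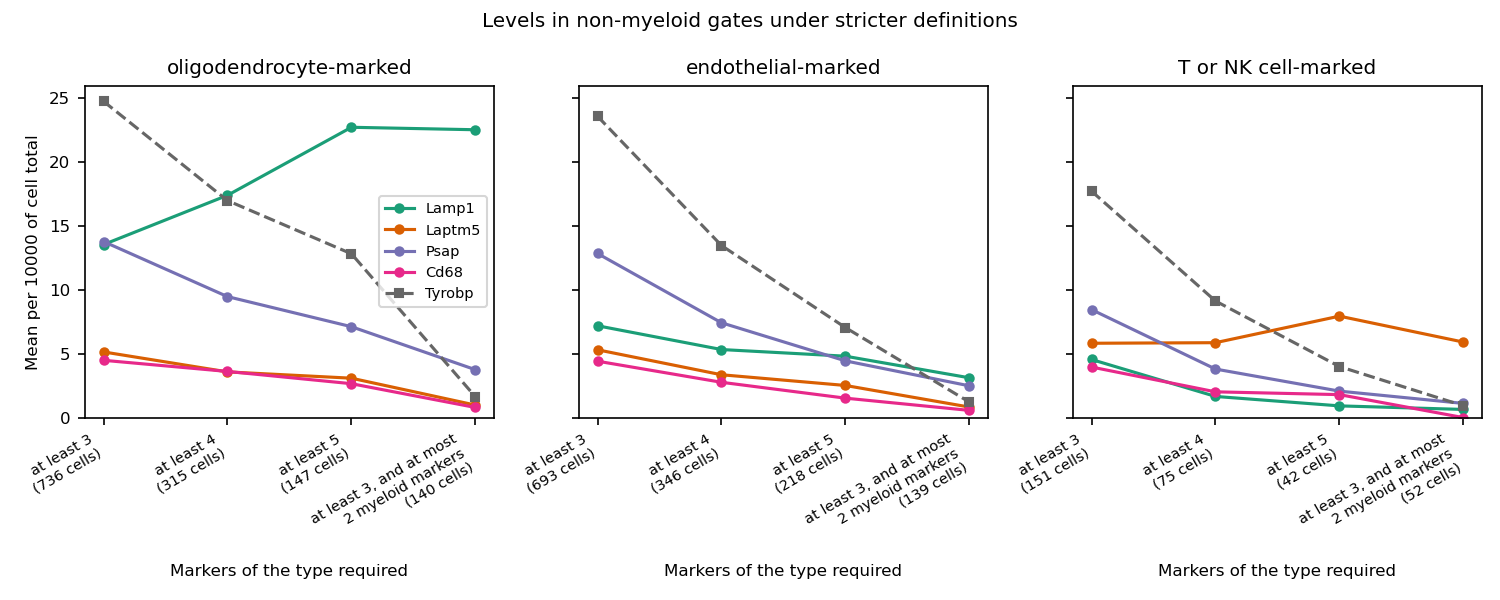
Mean per 10000 of the cell total of Lamp1, Laptm5, Psap, Cd68 and, for comparison, Tyrobp in 3 non-myeloid gates under 4 definitions of increasing strictness, with the number of cells under each. With sets pooled, Lamp1 goes up from 13.5 to 22.5 in oligodendrocyte-marked cells while Tyrobp goes down from 24.7 to 1.63. Tyrobp is itself a myeloid marker, so its last value is held low by the limit on those markers. Laptm5 stays between 5.82 and 7.94 in the pooled T or NK cell-marked cells.

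Across the 14 gates the profile of each member was compared with those of 7591 genes, as a description over gates that share cells of the same sets and the same myeloid transcripts. The 3 genes most like Cd68 were the cathepsins Ctsb, Ctsz and Ctsd (Pearson r of 0.98, 0.97 and 0.97 of log2 levels). For Laptm5 they were Ighm, Lpcat2 and the cathepsin Ctss (0.96, 0.96 and 0.95), for Grn Ctsl, Cyba and C1qa (0.98, 0.98 and 0.97), and for Psap Prkcd, Cyba and Ctsl (0.96, 0.95 and 0.94). The profile of Lamp1 was most like that of Epb41l2, Itm2b and Trf, the last of which encodes the iron carrier transferrin, made by oligodendrocytes (0.92, 0.92 and 0.91). Among the members themselves Psap and Grn were the most alike (r = 0.94) and Gusb and Lamp1 the least (r = 0.45).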

How the data were processed

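Per the labels and the study's methods, reads were mapped to GRCm38 in Cell Ranger 7.1.0, with reads from introns kept, before merging and filtering in Seurat 4.3.0.1. The values that the authors deposited are whole numbers per gene and cell, used here as a score, since how they were derived from molecule counts is not given in the sources used here, and the sequencing depth is therefore unknown. Values were divided by the cell total, multiplied by 10000 and averaged over cells. Gates needed at least 50 cells and sets at least 20. A gene was called at a ratio of means of at least 1.5, among genes with a mean of at least 0.5 per 10000 in either gate. Of the genes of 17 panels of 10 genes, 2 were not in the table. The text names the members, genes of the lists and panels, Apoe, and the 3 genes most like each member by Pearson r of log2(mean + 0.1). The members, lists and panels were chosen with earlier results of these data known. In simulated data for very high Apoe against homeostatic cells (18792 genes), 100% of genes raised 2-fold and 99.0% of genes lowered to 0.5 were called, and 0.0794% of 2518 unchanged genes were. Both simulated gates drew Poisson counts from the homeostatic mean profile, with no differences between sets. The simulation thus checks the calculation and gives no rate of wrong calls for the real cells. There 20.6% of 3238 genes were called higher and 30.5% lower. Python 3.11.15, numpy 2.4.6 and scipy 1.17.1 were used. Doublets were not removed. Promoter windows and gene positions came from RefSeq (GRCm38.p6), in which all 8 members were found.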

Additional observations from a re-analysis of the deposited data

How the results depend on the processing

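No paired analysis was possible because no label links a cell to its library, and no test was run. Of 494 counts recomputed under 22 alternatives, 422 stayed within 1.5 times of the reported count. None of the pooled member ratios past 1.5 changed direction. These alternatives pool sets, so they do not test a difference between sets. Inside set B, Gusb was below the homeostatic level in raised-Apoe, monocyte-like, interferon-responsive and proliferating cells (ratios 0.93, 0.66, 0.74 and 0.89). Laptm5 was above it in raised-Apoe cells (1.08). Each is opposite to the pooled direction. The other called ratios to homeostatic cells kept theirs in set B, as did raised-Apoe Gusb (1.097) and Laptm5 (0.764) in set F. The cause of the changes below was not tested. Shares of all genes were not recomputed under the alternatives, so the counts below have no background beside them. Sign changes occurred in 19 of 1032 member ratios, all of them of ratios under 1.5. This count leaves out the ratios over Tyrobp, of which Laptm5 in T or NK cell-marked cells changed sign in 3 alternatives and Psap and Grn in oligodendrocyte-marked cells in 5 each, whereas Lamp1 and Lamp2 in oligodendrocyte-marked and Psap and Lamp1 in astrocyte-marked cells changed in 0.

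Members higher in myeloid than in non-myeloid cells numbered 0 with at least 2 of 10 markers for non-myeloid gates, 6 with at least 4, 7 with at least 5 (chosen after seeing the data), 7 with at most 2 myeloid markers, 6 with cells thinned to the lowest total and 0 at a ratio of 2, and from 2 to 7 when 1 set was left out, 7 being without set A. For the other lysosome genes these counts were 0, 29, 33, 37, 25 and 0, then 2 with the deposited values as they are, 2 with the stated filters, 3 with 400 to 800 genes per cell, and from 2 to 23 with 1 set left out, the 23 without set A, 2 without set E and 3 without set C. Of the other lysosome genes, 2 were lower in myeloid cells with at most 2 myeloid markers, 1 with at least 5 markers and 1 without the limit on the mean.

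Members higher than in homeostatic cells changed as follows. In raised-Apoe cells they were 1 with Apoe limits of 20 and 40 and 0 at a ratio of 2, in very high Apoe cells 2 with limits of 5 and 100, with 400 to 800 genes and with totals without Apoe (added later), and 0 at a ratio of 2. In monocyte-like cells they were 0 with at least 3 monocyte-like markers, with limits of 20 and 40, with values as deposited and at a ratio of 2. In interferon-responsive cells they were 1 with at least 5 markers for non-myeloid gates and 1 at a ratio of 2. With 1 set left out the range was 1 to 2 in very high Apoe cells (2 without set A or without set B) and 0 to 2 in monocyte-like cells (0 without set D, 2 without set B).

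Members lower than in homeostatic cells were 0 in raised-Apoe cells with at least 4 homeostatic markers and at a ratio of 2, 1 in very high Apoe cells at a ratio of 2 and with totals without Apoe, and, in monocyte-like cells, 2 with at least 4 markers for non-myeloid gates or at least 4 homeostatic markers and 3 with values as deposited or with 400 to 800 genes. In interferon-responsive cells they were 2 with at least 4 homeostatic markers, with the stated filters and with 400 to 800 genes. With 1 set left out the range was 1 to 2 in monocyte-like cells (2 without set A, B, D or F) and 1 to 2 in interferon-responsive cells (2 without set D or E). With fewer than 50 cells left, no value was computed for interferon-responsive cells without set B or with at least 4 of 10 interferon markers, nor for proliferating cells without set B.

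Other lysosome genes higher than in homeostatic cells were, at a ratio of 2, 10 in raised-Apoe, 9 in very high Apoe, 10 in monocyte-like, 9 in interferon-responsive and 6 in proliferating cells, and without the limit on the mean 29, 28, 26, 27 and 19. In proliferating cells they were 6 with 400 to 800 genes. Lower at a ratio of 2 were 1, 4, 6, 5 and 9 in the same order, and 7 in raised-Apoe cells after thinning. Because depth is unknown, levels near the value of a single read, such as those of Gusb, set no firm order.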
